A study of Mus musculus with 6 samples.

Results

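The SR proteins are a family of splicing factors, and Srsf1, the gene deleted in the knockout mice of the series, is one of them. The family was taken as the 10 genes Srsf1, Srsf2, Srsf3, Srsf4, Srsf5, Srsf6, Srsf9, Srsf10, Srsf11 and Srsf12. Each was read from the brightest array row whose annotation names that gene alone. Srsf7 has no such row and is left out, so the family below means these 10 genes. All 10 passed the filter on dim rows and were tested among 19130 genes. The 3 knockout samples, labelled SRSF1HKO, were hepatocytes of C57BL/6 mice lacking SRSF1 in hepatocytes, and the 3 wild type samples, labelled WT, were hepatocytes of C57BL/6 mice. All mice were 3 months old and untreated, the cells were harvested by perfusion of the liver, and total RNA of each sample was hybridised to 1 mouse exon array. The promoter that drives the deletion, the deleted exons and how long the cells were cultured are not stated in the labels. The titles give each sample a number of its own but do not say that it stands for an animal, so part of the array to array spread behind the p-values may be technical.

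SR proteins carry RNA recognition motifs that bind exonic sequences and an arginine and serine rich tail (the RS domain) that recruits the splicing machinery. Kinases phosphorylate the tail, which sets where in the cell an SR protein is found and whether it is active. Several SR genes control their own level, and at times that of relatives, through exons with premature stop codons, whose inclusion sends the mRNA to nonsense-mediated decay. The values here are intensity summaries over the probes of a transcript unit and do not separate such isoforms.

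Srsf1 and Srsf5, which had the lowest log2 differences of the family, are shown by the sequence around a start site as listed by RefSeq for mouse build GRCm38.p6, from 250 bases before the start to 50 after it. Capitals mark matches, on either strand, to the CCAAT box (CCAAT), the GC box (GGGCGG) and the core of the ETS factor site (CCGGAA). The Srsf1 window is chr11:88047123-88047422 on the plus strand and the Srsf5 window chr12:80945249-80945548 on the plus strand.
Srsf1: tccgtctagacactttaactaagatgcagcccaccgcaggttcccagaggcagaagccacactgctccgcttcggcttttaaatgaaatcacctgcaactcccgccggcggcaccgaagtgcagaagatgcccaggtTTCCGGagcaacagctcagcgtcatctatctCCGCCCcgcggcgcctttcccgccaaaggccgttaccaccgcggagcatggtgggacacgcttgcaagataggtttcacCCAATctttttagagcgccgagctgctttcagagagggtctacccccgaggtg
Srsf5: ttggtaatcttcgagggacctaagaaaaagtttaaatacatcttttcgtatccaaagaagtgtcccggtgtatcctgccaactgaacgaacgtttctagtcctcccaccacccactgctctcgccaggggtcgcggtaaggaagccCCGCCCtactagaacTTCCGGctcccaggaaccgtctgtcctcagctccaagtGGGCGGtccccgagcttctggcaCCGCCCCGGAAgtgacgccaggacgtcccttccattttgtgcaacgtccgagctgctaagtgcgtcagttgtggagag

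All 10 genes had windows in that table, 13 in all because Srsf4 and Srsf11 have several starts, and 2 of the Srsf4 windows overlap almost fully. A GC box stood in 12 of the 13 windows, for 9 of the 10 genes, and in 35.7% of all 32851 windows counted. That count leaves out 1 chromosome, on which no member lies. The ETS core was in 7 of 13, for 5 of the 10 genes, and in 14.9% of all windows. Srsf5 held it at 2 places, 1 of them overlapping a GC box. A CCAAT box was found in 4 of the 13 windows, those of Srsf1, Srsf2, Srsf3 and Srsf10, and in 37.4% of all windows. Only the Srsf2 and Srsf3 windows held TATAAA, which 13.6% of all windows hold. No window held CACGTG or TGACGTCA, which 7.15% and 1.79% of all windows hold. The member windows were rich in G and C (56.0% to 78.3%, beside a median of 52.7% over all windows), a base composition that the letters of the GC box and the ETS core share. A match is a description of these letters and no measure of binding.

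Array scales differed, and 1 knockout array stood apart. Median deposited intensities were 28.8, 18.6 and 20.8 in knockout replicates 1, 2 and 3, against 31.8, 39.8 and 25.6 in wild type replicates 1, 2 and 3. The median gene lay at -0.44 (log2, knockout minus wild type) on the deposited values and at -0.01 after quantile normalization, which gives all arrays the same distribution. Unless stated otherwise, a difference is the knockout mean minus the wild type mean of quantile normalized values on the log2(intensity + 16) scale, with the standard error of limma's fit, and for the named SR genes and pathway genes the deposited scale is given beside them where it turns the direction or the call. Knockout replicate 1 read 9.95 for Xist, the RNA of the inactive X chromosome, against 2122 to 3532 on the other 5 arrays, and 130 for the Y-linked Eif2s3y, against 2.27 to 7.78. It correlated across genes at 0.942 and 0.947 (Pearson's r) with knockout replicates 2 and 3, whose own correlation was 0.985. Which part of its values goes with sex was not tested, and counts of calls are given with and without it. In the titles, its number just before the genotype lies within the range of the wild type samples. Those of knockout replicates 2 and 3 lie well above that range. What these numbers stand for is not stated, so in fits without knockout replicate 1 it cannot be told apart from genotype. On the deposited values with all 6 arrays, limma's prior degrees of freedom were infinite. Standard errors and p-values on that scale therefore follow the trend with intensity and not the spread of a gene's own arrays. Xist, for example, had an adjusted p of 1.2e-22 there, against 0.547 after quantile normalization (limma).

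With all 6 arrays, none of the 10 SR genes was called by limma after quantile normalization (threshold 0.05, Benjamini-Hochberg adjustment over all genes), where 4.17% of all genes were called, 1.42% lower and 2.74% higher. At an unadjusted p under 0.05 there were 4 members, all lower in the knockout, beside 15.4% of all genes in either direction. These were Srsf5, Srsf12, Srsf1 and Srsf4, and they were also the 4 whose knockout arrays all lay below all wild type arrays, a pattern that 10.1% of all genes showed. On the deposited values, where 93.4% of all genes had a difference below 0, the same 4 genes passed as lower, beside 6.86% of all genes. Without knockout replicate 1, in a fit of 2 against 3 arrays, 6 of the 10 passed: Srsf4, Srsf5 and Srsf12 fell, beside 5.37% of all genes, and Srsf6, Srsf9 and Srsf10 rose, beside 9.71% of all genes. The median over the 10 members was -0.10 with all arrays and -0.18 without knockout replicate 1, beside -0.01 and -0.02 over all genes tested. Over all genes, 525 were called higher and 272 lower after quantile normalization, against 178 higher and 1311 lower on the deposited values and 268 higher and 50 lower with arrays scaled to the same median, so a count of directions depends on the scale.

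**Figure D1:**
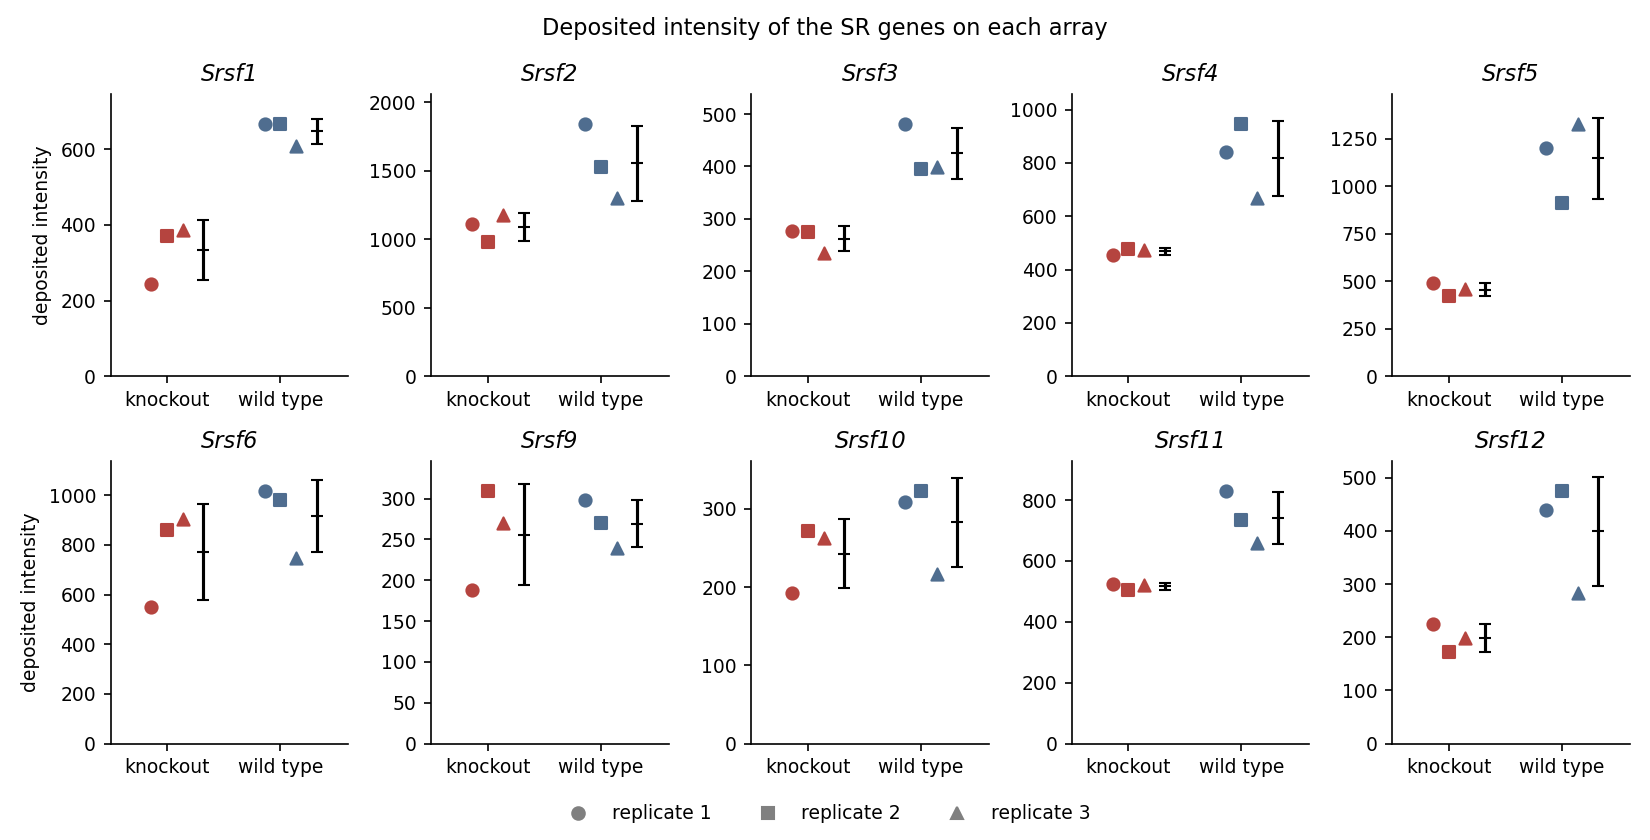
Each panel plots the deposited intensity (linear axis from 0) of 1 SR gene on the 3 knockout arrays, left, and the 3 wild type arrays, right, with the group mean ± SD beside the points. Srsf5, Srsf12 and Srsf1 have knockout means of 39.8%, 49.8% and 51.5% of the wild type mean, while the groups overlap for Srsf6, Srsf9 and Srsf10; array medians differ too, as the text gives.

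Srsf1, which acts in the choice of splice sites and also travels to the cytoplasm with mRNA, was the targeted gene. Its transcript cluster (6783359) read 242, 371 and 386 in the 3 knockout arrays, against 666, 667 and 607 in the 3 wild type arrays. The groups did not overlap, and the lowest value was that of knockout replicate 1. Means were 333 ± 78.7 in the knockout and 647 ± 34.3 in wild type (SD, n = 3 each). On this deposited scale, on which the median gene was lower too, 51.5% of the wild type mean was left. After quantile normalization the ratio of knockout to wild type was 0.69. The log2 difference was -0.53 ± 0.18 (limma, adjusted p = 0.183), with a 95% interval of -0.94 to -0.11, and 3.01% of all genes had a lower difference. An exact two-sided permutation test of Srsf1 alone returned p = 0.1, which is the lowest value possible with 3 arrays in each group. On the deposited values the difference was -0.95 ± 0.27 (limma, adjusted p = 0.010), with an error that does not use the spread of the gene's own arrays. It was -0.35 ± 0.12 without knockout replicate 1 (limma, adjusted p = 0.076), and -0.07 ± 0.18 with arrays scaled to the same median without that array. The cluster joins probes along the transcript unit and the deleted exons are not known here, so the signal left is a weak check of the labels. In these bulk samples, fewer cells of a type and less RNA per cell cannot be told apart.

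Srsf5, an SR protein that binds exonic enhancers, had the lowest difference of the family. It read 491, 421 and 458 in the knockout arrays, against 1202, 913 and 1330 in the wild type arrays. The groups did not overlap, and after quantile normalization the gap was narrow, with 9.42 in knockout replicate 1 against 9.50 in wild type replicate 2 (log2). The log2 difference was -0.78 ± 0.23 (limma, adjusted p = 0.110) with an interval of -1.30 to -0.26, and 1.25% of all genes had a lower one. Without knockout replicate 1 Srsf5 fell, by 0.93 ± 0.21 on the log2 scale (limma, adjusted p = 0.013), and on the deposited values the difference with all arrays was -1.29 ± 0.26 (limma, adjusted p = 7.3e-05). With median scaling without knockout replicate 1 it was -0.66 ± 0.24 and not called (limma, adjusted p = 0.076). On the deposited values the knockout mean was 39.8% of the wild type mean, a smaller share than that of the targeted gene itself. After quantile normalization the ratio of knockout to wild type was 0.58 for Srsf5 and 0.69 for Srsf1. Whether Srsf5 and Srsf1 differ in their change was not tested.

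Srsf12, a family member known from in vitro assays to work against other SR proteins in splice site choice, read 225, 172 and 199 in the knockout, against 439, 474 and 283 in wild type. The groups did not overlap, with wild type replicate 3 nearest to the knockout. Its difference was -0.45 ± 0.14 (limma, adjusted p = 0.121) with all arrays and -0.53 ± 0.11 (limma, adjusted p = 0.0097) without knockout replicate 1. Srsf4, one of the longest SR proteins, read 455, 478 and 473 in the knockout, against 839, 947 and 668 in wild type. The 3 knockout values lay close together, and all were below the lowest wild type value. Its difference was -0.30 ± 0.12 (limma, adjusted p = 0.264) with all arrays and -0.36 ± 0.09 (limma, adjusted p = 0.027) without knockout replicate 1. Both were called lower on the deposited values with all arrays, Srsf12 at -0.92 (limma, adjusted p = 0.018) and Srsf4 at -0.77 (limma, adjusted p = 0.047). For both genes the call without that array was lost when arrays were scaled to the same median, with differences of -0.36 (Srsf12, adjusted p = 0.130) and -0.07 (Srsf4, adjusted p = 0.834) in limma's test.

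Srsf6, Srsf9 and Srsf10 had differences above 0 after quantile normalization and below 0 on the deposited values. Srsf9, the member closest to Srsf1 in its arrangement of RNA recognition motifs, read 188, 309 and 270 in the knockout arrays, against 298, 270 and 240 in the wild type arrays. The deposited values of the groups overlapped, and knockout replicate 1 had the lowest of all. The difference was 0.32 ± 0.20 (limma, adjusted p = 0.562) with all arrays, and without knockout replicate 1 Srsf9 rose, by 0.56 ± 0.13 (limma, adjusted p = 0.013). On the deposited values the difference was -0.09 ± 0.28, and 0.10 ± 0.30 without knockout replicate 1. With all 6 arrays kept but weighted by their estimated quality, Srsf9 was called higher, at 0.47 (limma, adjusted p = 0.018). Such weights can give an outlying array less say, and their values are not given here. The weighted fit is therefore no separate check on leaving out knockout replicate 1. In that fit 2005 of 19130 genes were called higher and 1310 lower.

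Srsf10, which represses splicing when it is dephosphorylated, for example after heat shock, read 192, 272 and 263 in the knockout, against 308, 322 and 217 in wild type. Its difference was 0.21 ± 0.17 (limma, adjusted p = 0.677) with all arrays and 0.41 ± 0.10 (limma, adjusted p = 0.019) without knockout replicate 1. Srsf6, which shares its arrangement of RNA recognition motifs with Srsf4 and Srsf5, read 552, 859 and 905 in the knockout, against 1016, 980 and 749 in wild type. Its difference was 0.22 ± 0.13 (limma, adjusted p = 0.538) with all arrays and 0.35 ± 0.09 (limma, adjusted p = 0.021) without knockout replicate 1. In all 3 genes knockout replicate 1 was the lowest of the knockout arrays. With array weights and all 6 arrays, Srsf10 was called higher at 0.36 (limma, adjusted p = 0.030) and Srsf6 at 0.36 (limma, adjusted p = 0.013). As given above, 2005 of 19130 genes were called higher in that fit, which is no separate check on leaving out knockout replicate 1. Srsf10 stood at -0.20 and Srsf6 at -0.26 on the deposited values, and without knockout replicate 1 at -0.05 ± 0.30 and -0.04 ± 0.27, so neither higher call was made there.

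Srsf2, Srsf3 and Srsf11 showed the smallest changes relative to their errors. Srsf2, a nuclear SR protein of splicing speckles, read 1111, 978 and 1175 in the knockout, against 1843, 1528 and 1298 in wild type, with a difference of 0.03 ± 0.15 and a 95% interval of -0.30 to 0.37. Srsf11, an SR protein that binds the U2AF splicing factor, read 526, 504 and 520 in the knockout, against 829, 734 and 659 in wild type, with a difference of -0.01 ± 0.14 and an interval of -0.33 to 0.30. Both stood at -0.50 on the deposited values, which turns the direction of Srsf2. These quantile normalized intervals still allow changes as large as the Srsf4 difference. Srsf3, a short SR protein that also works as an adaptor in mRNA export, read 277, 275 and 235 in the knockout, against 481, 395 and 399 in wild type. Its difference was -0.19 ± 0.16 (limma, adjusted p = 0.702), and -0.26 ± 0.15 without knockout replicate 1. On the deposited values the groups of all 3 genes did not overlap, as they did not for 28.0% of all genes in the lower direction, and none of the 3 passed.

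**Figure D2:**
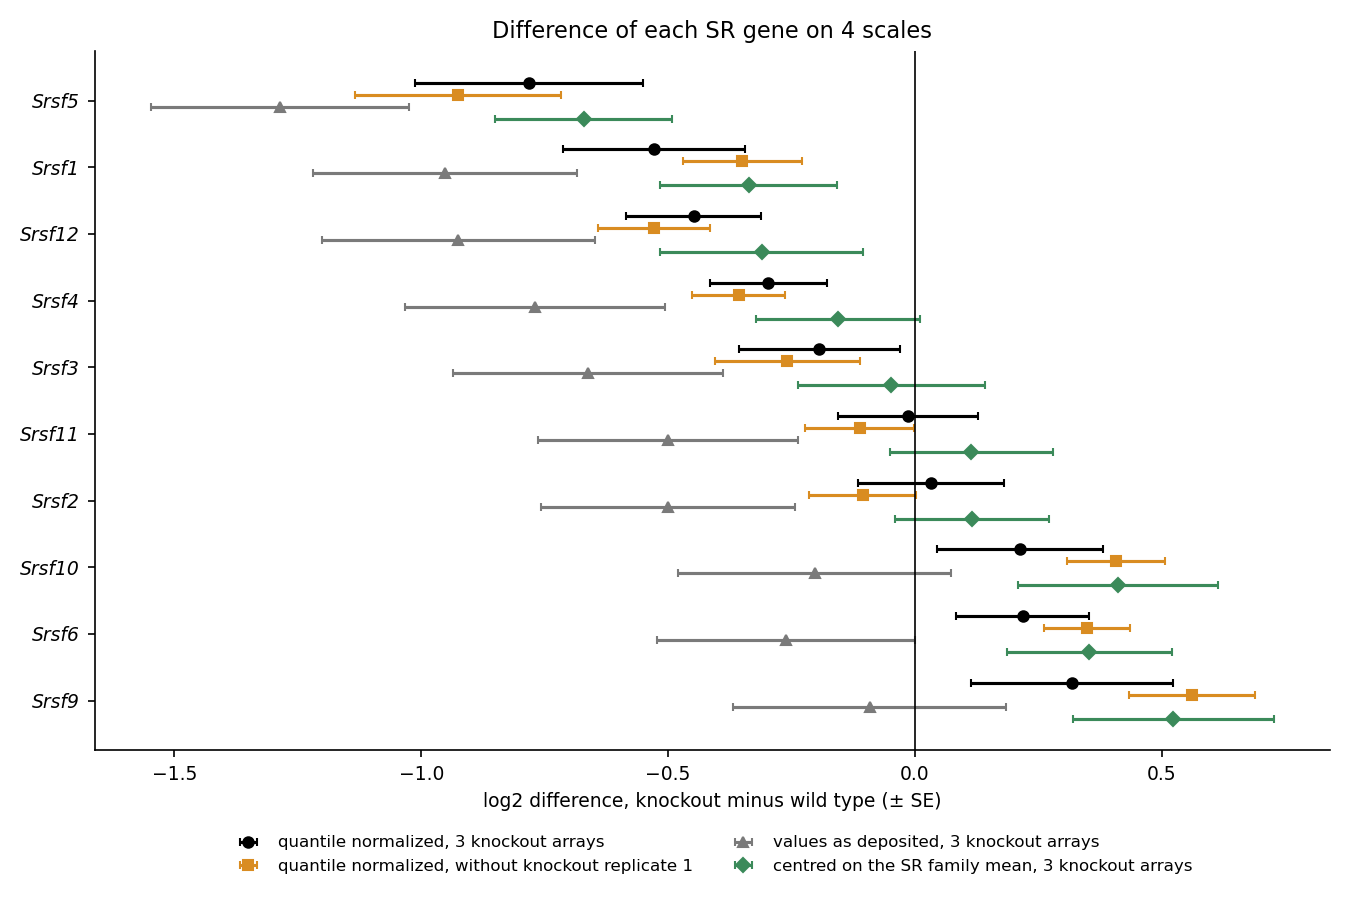
Points give the log2 difference (knockout minus wild type, ± SE of limma's fit) of each SR gene on 4 scales, ordered by the quantile normalized value. Srsf5, Srsf1, Srsf12, Srsf4 and Srsf3 lie below 0 on all 4, while Srsf6 and Srsf10 lie above 0 on 3 scales and below 0 on the deposited values, as Srsf9 does.

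For a comparison within the family, the mean log2 value of the 10 members was subtracted on each array from the deposited values, a setting chosen after the data had been seen. This takes out a shift that is equal for all genes of an array, but not one that varies with intensity, and the median gene then lay at 0.17. Srsf5 lay at 0.41, 0.04 and 0.13 relative to that mean in the knockout arrays, against 0.81, 0.51 and 1.27 in the wild type arrays. It fell relative to the family, with a difference of -0.67 ± 0.18 (limma, adjusted p = 0.018), and was the 1 member of 10 called, where 1.14% of all genes were called lower on this scale. The SD of Srsf5 was 0.19 in the knockout and 0.38 in wild type. Because limma's error draws on other genes too, the call does not rest on that spread alone. Srsf1 lay at -0.56, -0.14 and -0.11 in the knockout, against -0.03, 0.07 and 0.16 in wild type, a difference of -0.34 ± 0.18 (limma, adjusted p = 0.422). Srsf9 lay at -0.90, -0.39 and -0.60 in the knockout, against -1.15, -1.19 and -1.12 in wild type, a difference of 0.52 ± 0.20 (limma, adjusted p = 0.162). The groups did not overlap for Srsf1 and Srsf5 in the lower direction nor for Srsf9, Srsf10 and Srsf11 in the higher direction, as for 20.1% of all genes in either direction. Srsf5 is part of the mean it is set against, and the differences of the 10 members cancel out by construction. Some members must therefore lie above the mean change and others below it. Variation shared by the members is taken out of their values but not out of those of other genes, so the shares over all genes are no like comparison. Such values describe the members relative to each other and do not tell which member stayed the same.

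Further rows carried the symbols of 3 members and were dimmer. Srsf10 had a second cluster (6811385) that read 163, 128 and 138 in the knockout, against 151, 182 and 103 in wild type, with a difference of 0.46 where the brighter cluster had 0.21. The second Srsf1 cluster (6790588) read 21.4, 18.1 and 12.8 in the knockout, against 18.1, 37.1 and 22.0 in wild type, near the array medians, with a difference of -0.02. The other 2 Srsf3 clusters read under 50 on every array and did not pass the filter. Whether these rows belong to the genes or to copies of them was not tested. With the median over a gene's rows in place of the brightest, the Srsf1 difference was -0.27 (limma, adjusted p = 0.479).

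Genes that work with SR proteins showed few calls after quantile normalization. The counts of this and the later lists stand beside shares over all genes of 2.74% higher and 1.42% lower with all arrays. Without knockout replicate 1 the shares were 9.71% higher and 5.37% lower, and on the deposited values 6.86% were lower. Of 27 measured SR-related proteins, which carry RS-rich stretches outside the family proper, 0 rose and 0 fell, with 3 higher and 2 lower without knockout replicate 1. The 4 with the smallest p were the splicing coactivator Srrm2 (0.34 ± 0.08, adjusted p = 0.053), Pnisr (-0.76 ± 0.19, adjusted p = 0.064), Luc7l2, related to a yeast U1 snRNP protein (-0.62 ± 0.19, adjusted p = 0.127), and Bclaf1 (0.41 ± 0.13, adjusted p = 0.150), all in limma's test. As deposited, 2 were called lower, Pnisr (-1.19, limma, adjusted p = 0.00079) and Luc7l2 (-1.10, limma, adjusted p = 0.0016), while Srrm2 at -0.19 and Bclaf1 at -0.05 turned direction. The list median was -0.04, beside -0.01 over all genes, and -0.51 on the deposited values, beside -0.44.

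Among 16 kinases, phosphatases and import factors of SR proteins, 0 passed with all arrays, and 3 were higher and 2 lower without knockout replicate 1. Clk1, a nuclear kinase of SR proteins, read 444, 413 and 425 in the knockout, against 964, 951 and 991 in wild type, and had a difference of -0.66 ± 0.17 (limma, adjusted p = 0.066). Its relative Clk4 had -0.37 ± 0.13 (adjusted p = 0.194), Dyrk1b -0.57 ± 0.16 (adjusted p = 0.086) and the phosphatase subunit Ppp1ca 0.28 ± 0.12 (adjusted p = 0.323) in the same test. The kinases Srpk1 and Srpk2, which act on SR proteins in the cytoplasm, had 0.14 ± 0.17 and -0.02 ± 0.19. With values as deposited, 3 of the 16 were called lower, Clk1 (-1.15, limma, adjusted p = 0.00064), Dyrk1b (-1.02, limma, adjusted p = 0.0050) and Clk4 (-0.86, limma, adjusted p = 0.019). Ppp1ca at -0.22 and Srpk1 at -0.32 turned direction there.

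Of 10 measured hnRNP proteins of the A/B and H/F groups, RNA-binding proteins that often act against SR proteins, 1 rose. This was Hnrnpab (0.42 ± 0.10, limma, adjusted p = 0.049), which on the deposited values stood at -0.10 and was not called. Hnrnph3 had -0.82 ± 0.22 (adjusted p = 0.086), Hnrnpd 0.39 ± 0.12 (adjusted p = 0.137) and Hnrnpa0 0.31 ± 0.12 (adjusted p = 0.226) in limma's test. On the deposited values Hnrnph3 (-1.21, limma, adjusted p = 0.00052) and Hnrnph1 (-0.85, limma, adjusted p = 0.026) were called lower, while Hnrnpd at -0.08 and Hnrnpa0 at -0.18 turned direction. None of 12 nonsense-mediated decay and exon junction genes and none of 13 mRNA export genes passed, and their medians were -0.03 and 0.18. The lowest p in these lists belonged to Nbas (-0.46 ± 0.14, adjusted p = 0.111) and Poldip3 (0.30 ± 0.10, adjusted p = 0.154). Nbas was called lower on the deposited values (-0.93, limma, adjusted p = 0.012), where Poldip3 turned to -0.20. Without knockout replicate 1, 2 hnRNP genes were higher and 2 lower, 1 decay gene was higher and 1 lower, and 2 export genes were higher and 0 lower.

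**Figure D3:**
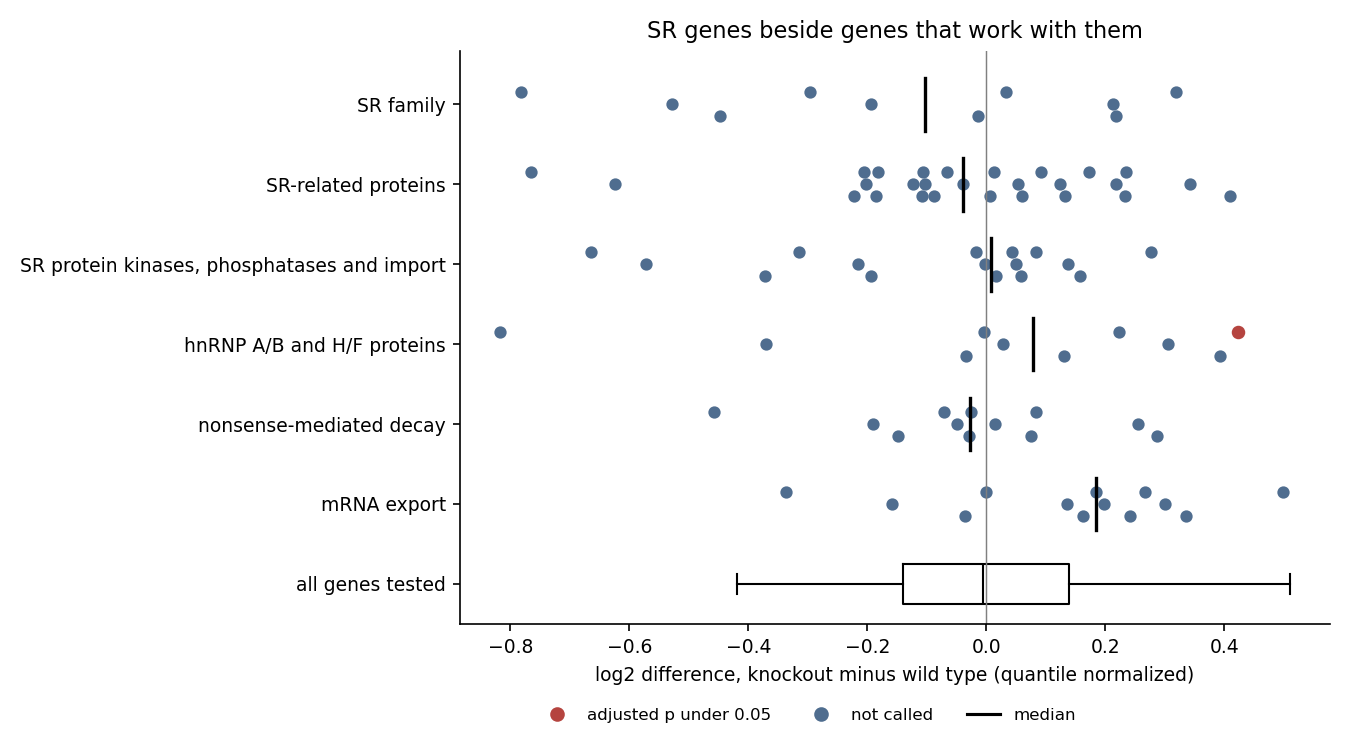
Each point is the quantile normalized log2 difference (knockout minus wild type) of 1 gene, bars are list medians, and the box over all 19130 genes spans the 25th to 75th percentile (-0.14 to 0.14) with whiskers at the 5th and 95th (-0.42 to 0.51). The SR family runs from -0.78 to 0.32 with no called member, and Hnrnpab, at -0.10 and not called on the deposited values, is the 1 called gene among the lists shown.

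After quantile normalization, macrophage markers, stellate cell markers and cell cycle genes had higher sums in the knockout arrays. Summed quantile normalized intensities of 12 macrophage markers were 1737 to 2046 in the knockout, against 888 to 1408 in wild type, and 1 of the 12 rose. Those of 12 stellate cell and fibroblast markers were 2937 to 3992 in the knockout, against 2024 to 2406 in wild type, and 2 rose. Those of 19 cell cycle genes were 3952 to 6906 in the knockout, highest in replicate 1, against 1178 to 2743 in wild type, and 9 rose. The medians of these 3 lists were 0.50, 0.41 and 1.34, and 0.06, -0.03 and 0.96 on the deposited values. There 1 macrophage marker, 0 stellate cell markers and 10 cell cycle genes were called higher, and the sums of the groups overlapped for macrophage markers (1364 to 1797 in the knockout, against 825 to 1961 in wild type) and for stellate cell markers (2371 to 3387 in the knockout, against 1873 to 3013 in wild type). Without knockout replicate 1, 5 macrophage markers, 6 stellate cell markers and 14 cell cycle genes were called higher after quantile normalization, and 2 hepatocyte markers lower. A marker counted as measured only after it passed the filter on dim rows, so its signal does not show that a cell type was present. The part of the genes of these lists in the SR gene values was not tested. Of 12 hepatocyte markers 1, the albumin gene Alb, fell (-0.39 ± 0.05, limma, adjusted p = 0.0023), and their sums were 69640 to 73670 in the knockout, against 77390 to 79100 in wild type. Alb stood at -0.26 on the deposited values and was not called (limma, adjusted p = 0.383). Quantile normalized sums of erythroid markers were lower in the knockout (678 to 803.6, against 838.2 to 943.5 in wild type). Those of endothelial markers overlapped (1429 to 1825, against 1479 to 2040). Those of cholangiocyte (530.7 to 666.6, against 487.3 to 516.2) and lymphocyte markers (577.1 to 727.8, against 556.1 to 573) were higher in the knockout. On the deposited values the groups overlapped for cholangiocyte (390 to 614, against 453 to 726 in wild type) and lymphocyte markers (407 to 708, against 523 to 788). The medians of these lists were -0.34 and -0.31 there. After quantile normalization with all arrays, none of 12 endothelial, 5 cholangiocyte and 4 erythroid markers and 1 of 7 lymphocyte markers passed, with a median of 0.13 over the lymphocyte list. Without knockout replicate 1 the calls were 1 endothelial and 1 lymphocyte marker higher and 1 erythroid marker lower, and on the deposited values 2 erythroid markers were lower and the lymphocyte call was lost.

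The genes most like Srsf1 in their centred log2 profile over the 6 arrays were 1700094D03Rik, Gm1833 and Mia3. Their root mean square distances to the Srsf1 profile were 0.05, 0.07 and 0.07 log2 units. Mia3, a protein of collagen export from the endoplasmic reticulum, read 430, 771 and 753 in the knockout, against 1368, 1359 and 1110 in wild type, and like Srsf1 was lowest in knockout replicate 1. The distances describe these 6 arrays only, and no test goes with them.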

How the data were processed

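Total RNA of 3 knockout and 3 wild type hepatocyte samples was hybridised to 1 mouse exon array each. The deposited values are array intensity summaries on a linear scale made with PLIER on build mm9, per the submitters' processing notes; its version and any scaling of arrays to each other are not stated there. The number of arrays limits the precision.

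Of 238609 rows, 24343 carry 1 gene symbol in the platform annotation, updated through Entrez IDs to RefSeq symbols. Values were quantile normalized over all rows and transformed as log2(intensity + 16). The dimmest 40% of rows (mean log2 value under 5.19) were dropped, and the brightest row per gene was used. Genes were compared with limma 3.58.1 (R 4.3.3), using a linear model of genotype alone and eBayes with the variance trend on intensity, with Benjamini-Hochberg adjustment over 19130 genes and a threshold of 0.05; the fit was tested on simulated data. The same fit was made on the values as deposited and under the alternatives of the closing section.

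The members and gene lists were chosen with earlier results of these data known. Named are all members, up to 4 genes per pathway list by p-value, the sex-linked check genes and the 3 profiles nearest to Srsf1. Of each marker list the 2 brightest genes were to be named, which is done here only for albumin; Srpk1, Srpk2 and Hnrnph1 were added after their values were seen.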

Additional observations from a re-analysis of the deposited data

How the results depend on the processing

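No paired analysis was possible because the labels give the groups no shared replicate numbers. With 0 of 10 SR genes called by limma after quantile normalization of all arrays, the count was also 0 with median scaling, cyclic loess, pseudocounts of 1 and 64, no filter or a filter at the 60th percentile, the median over rows, no intensity trend and robust variances. It was 4 on the values as deposited and 6 with array weights (3 higher, 3 lower), and 0 to 6 with 1 array left out, the 6 without knockout replicate 1. In settings chosen after seeing the data it was 3 without that array both on the deposited values (all lower) and with median scaling (all higher), and 1 with arrays centred on the family. The Srsf1 difference stayed below 0 in every setting run and was called only on the deposited values (-0.95); with 1 array left out it ran from -0.64 to -0.35. Over all genes the 797 calls became 1489 on the deposited values, 318 with median scaling, 3315 with array weights, and 309 to 2884 with 1 array left out; without knockout replicate 1 there were 3291 on the deposited values (186 higher, 3105 lower) and 2852 with median scaling (2439 higher, 413 lower), so the members' directions there were those of most calls. Directions turned for 5 members. Srsf2 was at -0.50 on the deposited values and -0.52 there without knockout replicate 1, -0.022 with array weights and -0.11 to 0.18 with 1 array left out, below 0 without knockout replicate 1 or wild type replicate 2. Srsf6 was at -0.26 and -0.041, Srsf10 at -0.20 and -0.054, on the deposited values with and without knockout replicate 1, and Srsf9 at -0.092 with it. Srsf11 was at 0.0011 and 0.17 with median scaling with and without that array, at 0.11 centred on the family, and -0.11 to 0.070 with 1 array left out, above 0 without knockout replicate 2 or 3 or wild type replicate 3. The cause of these shifts was not tested.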
